A study of Mus musculus with 9 samples.

Results

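The 9 genes described here encode the parts of the inflammasome and the proteases and pore-forming protein that act with it. They are the sensors *Nlrp3*, *Nlrp1b*, *Nlrc4*, *Aim2* and *Mefv*, the adaptor *Pycard*, the proteases *Casp1* and *Casp4*, and the effector *Gsdmd*. Members were found by their gene symbol in the deposited counts, where each had 1 row, so that 9 of 55471 genes were taken. All 9 passed edgeR's filter on low counts, as did 16260 genes in all.

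An inflammasome forms when a cytosolic sensor meets a microbial product or a sign of cell damage and, in most cases through the adaptor ASC, gathers and activates caspase-1. Caspase-1 cuts the precursors of the cytokines IL-1β and IL-18 and cuts gasdermin D, whose freed end makes pores in the plasma membrane, while the mouse protease encoded by *Casp4*, also called caspase-11, binds LPS in the cytosol and cuts gasdermin D directly. In macrophages and DCs, contact with a microbial product is known to raise the transcription of some of these genes before a further signal assembles the complex, and the counts analysed here measure RNA and neither assembly nor cleavage.

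The study compared DCs given a bacterial or an antiviral stimulus. Wild-type C57BL/6 bone marrow was cultured with GM-CSF at 20 ng/mL, and the cells were harvested after 6 h without stimulus, with 100 ng/mL of LPS, or with 1000 U/mL of IFN-β. TLR4 at the cell surface senses LPS, a component of the outer membrane of Gram-negative bacteria. IFN-β belongs to the type I interferons, which infected cells release. The 3 groups had 3 libraries each, lettered A, B and C, and the study's methods give female mice of 8 to 20 weeks for its experiments. No source used here says whether the letters stand for separate mice or separate cultures, so p-values measure only the spread between these libraries, which may be technical.

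Libraries held 33425803 to 43735199 counts on genes, so that 3 counts corresponded to 0.0674 to 0.106 CPM, the count scaled to a common library size with TMM factors. The lowest member count in a library was 155 (*Nlrp1b*, LPS-activated DCs) and the highest was 16961 (*Nlrp3*, LPS-activated DCs), well above that floor. All 12 dendritic cell markers and all 10 macrophage markers of fixed lists exceeded 3 counts in the unstimulated libraries, as is usual of GM-CSF cultures, which hold both kinds of cell. Summed macrophage markers lay between 2239 and 2918 CPM in unstimulated, 2175 and 2935 CPM in LPS-activated, and 2963 and 3369 CPM in IFN-β-treated DCs, and their part in the member values was not tested. Marker lists of T cells, B cells and erythroid cells summed to at most 0.609 CPM in any library, and 5 of 6 NK cell markers had group means of 0.190 CPM or less. The sixth, *Klrk1*, had means of 1.73 CPM unstimulated, 12.1 CPM with LPS and 15.9 CPM with IFN-β, so that the NK list summed to 1.85 to 18.2 CPM. The list of 8 mast cell and basophil markers summed to 7.07 to 10.2 CPM unstimulated, 136 to 155 CPM with LPS and 10.2 to 11.5 CPM with IFN-β. Most of the sum with LPS was *Hdc*, the histamine-forming enzyme, at a mean of 142 CPM. *Kit* had means of 8.38 CPM unstimulated, 5.93 CPM with LPS and 3.56 CPM with IFN-β. *Cpa3*, *Mcpt1*, *Mcpt4*, *Mcpt8*, *Fcer1a* and *Prss34* had group means of 0.147 CPM or less. The part of these lists in the member values was not tested. In bulk RNA, a change in the number of cells of one type and a change in RNA per cell cannot be told apart.

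With LPS, 7 of the 9 genes rose and 2 fell. The rises ran from 16.9-fold for *Casp4* and 8.93-fold for *Mefv* down to 1.17-fold for *Nlrc4*. The sensor gene *Nlrp1b* was 6.96-fold lower and the adaptor gene *Pycard* 1.70-fold lower. All 9 passed the threshold of an adjusted p under 0.05 in edgeR's quasi-likelihood test, where 68.2% of all tested genes did (32.8% higher and 35.4% lower). Most tested genes thus passed in this comparison, and a pass says little about a member. A log2 fold change of at least 1 in size was also reached by 7 of the 9, and by 33.4% of tested genes. The median log2 fold change of the members was 1.78, against -0.04 over all tested genes.

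With IFN-β, 8 of the 9 genes rose and *Nlrp1b* alone fell. The largest rise was again that of *Casp4* (6.50-fold), followed by *Casp1* (3.39-fold) and *Aim2* (2.36-fold), and the other rises lay between 1.38-fold and 1.94-fold. All 9 passed the same threshold, where 46.9% of tested genes did (23.6% higher and 23.3% lower). Only *Casp4*, *Casp1* and *Aim2* had a log2 fold change of at least 1, a size that 12.6% of tested genes passed. The members' median log2 fold change was 0.94, against -0.02 over all tested genes.

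Compared directly, IFN-β-treated DCs had lower levels than LPS-activated DCs of 6 members and higher levels of 3, namely *Pycard*, *Nlrp1b* and *Nlrc4*. All 9 differences passed the threshold, where 49.1% of tested genes did (25.8% higher and 23.3% lower), and 24.3% of tested genes passed in all 3 comparisons. The 2 comparisons with unstimulated DCs share their control libraries. *Pycard* was the only member that moved in opposite directions, lower with LPS and higher with IFN-β, which 1.76% of tested genes did. In each of the 27 pairs of member and comparison the 3 libraries of one group did not overlap those of the other, as held for 72.4%, 58.1% and 56.8% of tested genes (LPS against unstimulated, IFN-β against unstimulated, IFN-β against LPS). The exact permutation test of 3 libraries against 3, two-sided, gave 0.1 for each pair, the smallest p that it can give.

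**Figure D1:**
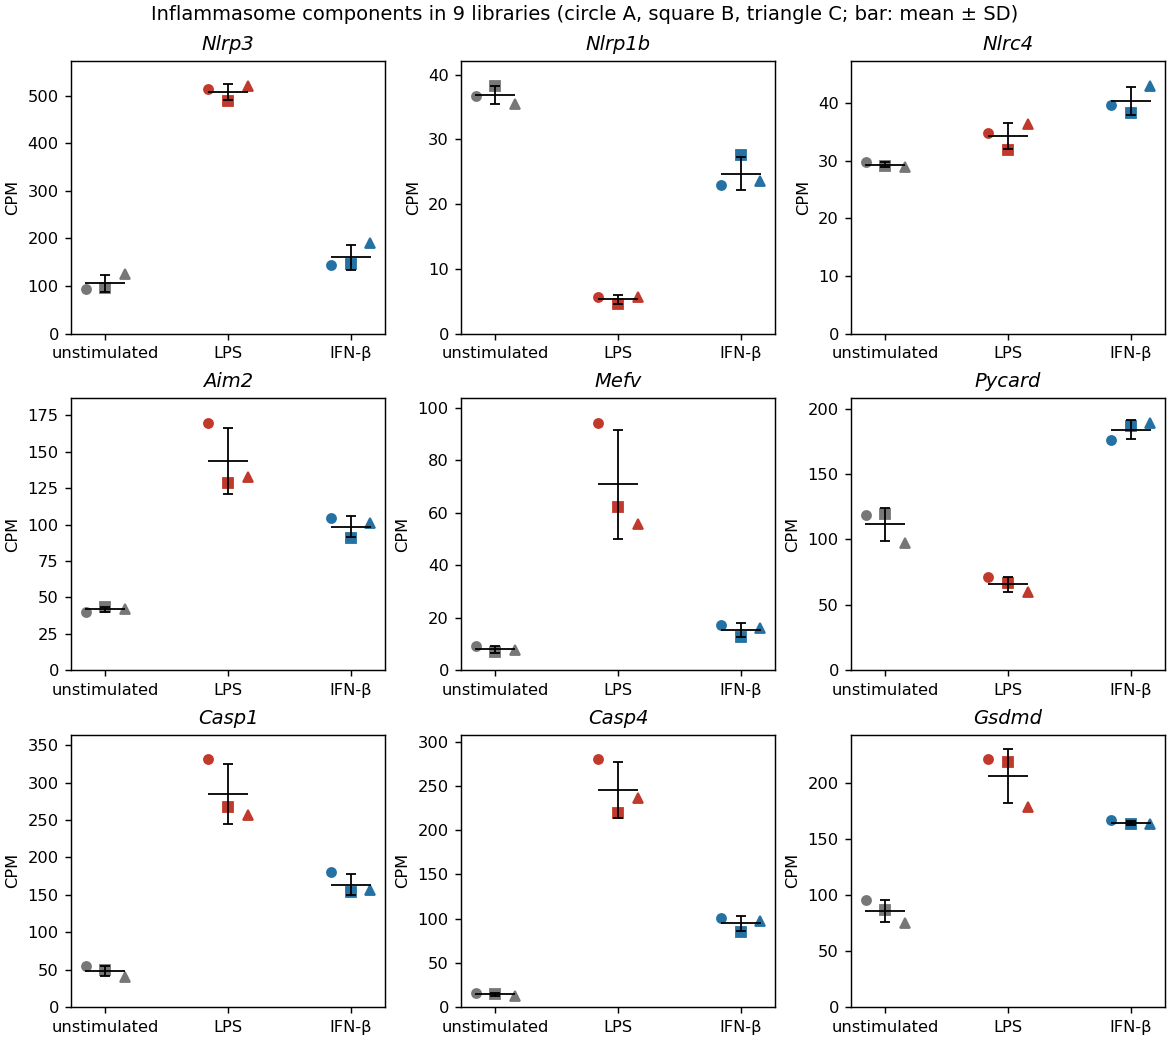
CPM (linear axes from 0) of each of the 9 genes in unstimulated, LPS-activated and IFN-β-treated DCs, with circles, squares and triangles for libraries A, B and C and a bar for the mean ± SD (n = 3). *Casp4* lies at 12.9 to 16.3 CPM in unstimulated DCs and at 219 CPM or more with LPS, *Nlrp1b* falls below 6 CPM with LPS, and *Pycard* is lowest with LPS and highest with IFN-β.

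The sensors differed most among themselves. *Nlrp3* (ENSMUSG00000032691; GRCm38 chr11:59541568-59566956, plus strand) encodes a sensor that responds to many kinds of cell damage, potassium efflux among them. It stood at 94.1, 96.6 and 126 CPM in unstimulated libraries A, B and C, at 515, 489 and 521 CPM in the LPS-activated libraries and at 145, 146 and 189 CPM in the IFN-β-treated libraries. Library C was the highest of each group, and the 3 groups were far enough apart that this did not make them overlap. *Nlrp3* rose with LPS by 2.27 on the log2 scale (edgeR quasi-likelihood test, standard error 0.14, Benjamini-Hochberg adjusted p = 1.2e-07). With IFN-β it rose by 0.60 (standard error 0.13, edgeR adjusted p = 0.0033), a call lost with library size alone (0.29, edgeR adjusted p = 0.0864), and the level with IFN-β was lower than that with LPS by a log2 difference of -1.67. Between libraries of the same letter, the rise with IFN-β was 0.59 to 0.62 on the log2 scale.

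*Mefv* (ENSMUSG00000022534; chr16:3707218-3718097, minus strand) encodes pyrin, a sensor that responds to certain bacterial toxins. Its levels were 9.32, 6.83 and 7.65 CPM unstimulated, 94.4, 62.3 and 55.8 CPM with LPS, and 17.4, 12.5 and 16.2 CPM with IFN-β. All LPS-activated libraries were above the others, with library A well above B and C. The log2 fold change was 3.16 with LPS (edgeR quasi-likelihood test, standard error 0.21, Benjamini-Hochberg adjusted p = 3.1e-07) and 0.95 with IFN-β (standard error 0.21, edgeR adjusted p = 0.0034). Neutrophils express *Mefv*, and the summed level of 11 neutrophil markers was highest in library A of each group: 56.9 CPM against 24.2 and 20.96 unstimulated, 163 against 77.0 and 54.1 with LPS, and 88.0 against 41.2 and 34.1 with IFN-β. *Csf3r*, the receptor for G-CSF, made up 33.1, 13.4 and 8.73 CPM of these sums in unstimulated, 137, 63.6 and 38.0 CPM in LPS-activated, and 68.0, 31.3 and 24.1 CPM in IFN-β-treated libraries A, B and C. Without it the sums were still highest in A, at 23.8, 10.8 and 12.2 CPM unstimulated, 25.7, 13.4 and 16.04 CPM with LPS, and 20.002, 9.93 and 10.1 CPM with IFN-β. Of the other markers, *S100a8* reached 15.3 CPM and *S100a9* 6.06 CPM, and both were highest in A of each group, as were *Ngp* and *Ltf*. *Camp* and *Cxcr2* were highest in A of the unstimulated and LPS-activated groups only. In IFN-β-treated libraries A, B and C, *Camp* stood at 0.141, 0.212 and 0.110 CPM and *Cxcr2* at 0.258, 0.292 and 0.304 CPM. *Ly6g*, *Elane*, *Mpo* and *Retnlg* stayed at 0.27 CPM or less in all 9 libraries. Without the 3 A libraries the log2 fold change of *Mefv* was 3.03 with LPS and 0.98 with IFN-β. In B and C the full marker sums were also higher with either stimulus than unstimulated. Without *Csf3r* the sums in B and C were higher with LPS and lower with IFN-β. The part of these cells in the *Mefv* values was not tested.

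*Aim2* (ENSMUSG00000037860; chr1:173350879-173466040, plus strand) encodes a sensor of double-stranded DNA in the cytosol. It measured 39.7, 43.1 and 42.3 CPM unstimulated, 170.05, 128 and 133 CPM with LPS, and 104, 90.5 and 101 CPM with IFN-β. The unstimulated libraries lay close together, and both stimuli raised every library clear of them. *Aim2* rose by 1.78 on the log2 scale with LPS (edgeR quasi-likelihood test, standard error 0.11, Benjamini-Hochberg adjusted p = 1.3e-07) and by 1.24 with IFN-β (standard error 0.11, edgeR adjusted p = 9.4e-06). It was thus the sensor gene with the largest change under IFN-β, and the levels under the 2 stimuli differed by -0.54 (edgeR adjusted p = 0.0014), less than for *Nlrp3* or *Mefv*.

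*Nlrc4* (ENSMUSG00000039193; chr17:74425438-74459142, minus strand) encodes the sensor that joins NAIP proteins bound to bacterial flagellin or secretion-system proteins. The values were 29.8, 29.2 and 28.9 CPM unstimulated, 34.9, 31.9 and 36.3 CPM with LPS, and 39.7, 38.3 and 43.0 CPM with IFN-β. The groups stood in that order without overlap, close to each other. *Nlrc4* was the only member changed more by IFN-β (log2 fold change 0.46, edgeR quasi-likelihood test, standard error 0.07, Benjamini-Hochberg adjusted p = 3.9e-04) than by LPS (0.23, standard error 0.07, edgeR adjusted p = 0.0139). The LPS value rested on the scaling: with library size alone it was -0.35 (edgeR adjusted p = 0.0011), and with upper-quartile factors 0.14 (edgeR adjusted p = 0.117). Set against the median of all tested genes, it was 0.27 under all 3 scalings. A change of scaling moves all genes nearly alike, so this sameness is built in and does not bear on the call. Without unstimulated library B or C or LPS-activated library C the LPS value also missed the threshold, at 0.19 to 0.22 (edgeR adjusted p = 0.05005 to 0.0540).

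*Nlrp1b* (ENSMUSG00000070390; chr11:71153102-71230733, minus strand) encodes a sensor that, in some mouse strains, is set free when microbial proteases such as anthrax lethal factor cut it. It was at 36.7, 38.3 and 35.5 CPM unstimulated, at 5.70, 4.52 and 5.68 CPM with LPS, and at 22.9, 27.6 and 23.6 CPM with IFN-β. All 3 LPS-activated libraries were far below the others, with 155 to 185 counts each. The log2 fold change was -2.80 with LPS (edgeR quasi-likelihood test, standard error 0.11, Benjamini-Hochberg adjusted p = 9.8e-09), as low as that of 2.31% of tested genes. With IFN-β it was -0.57 (standard error 0.10, edgeR adjusted p = 8.1e-04), which makes *Nlrp1b* the only member that fell with both stimuli. The gene lies in a cluster with *Nlrp1a* and the pseudogene *Nlrp1c-ps*, and reads shared by these close copies may affect the count of each. *Nlrp1a* fell by 1.41 and *Nlrp1c-ps* by 3.27 on the log2 scale with LPS. The promoter is shown because this was the largest fall. Bases are the 250 upstream of the first RefSeq start (RefSeq, GRCm38.p6), chr11:71230734-71230983, minus strand, 5′ to 3′. Capitals are kept for matches on either strand to the interferon-stimulated response element (GAAA, any 2 bases, GAAA) or the STAT site GAS (TTCNNNGAA). They also mark the κB consensus of NF-κB on either strand, and this window held none of the 3 motifs. A second window, whose start lies 29277 bases from the annotated gene start, also held none. The bases checked after the start matched an annotated transcript for the second window but not for the first.
Nlrp1b: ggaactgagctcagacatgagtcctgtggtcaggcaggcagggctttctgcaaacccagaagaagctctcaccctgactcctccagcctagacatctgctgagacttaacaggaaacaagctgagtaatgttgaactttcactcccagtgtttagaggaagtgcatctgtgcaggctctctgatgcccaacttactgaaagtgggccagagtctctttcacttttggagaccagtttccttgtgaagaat

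*Pycard* (ENSMUSG00000030793; chr7:127989708-127993867, minus strand) encodes ASC, the adaptor that links sensors to caspase-1 and collects into specks. Its levels were 118, 119 and 97.3 CPM unstimulated, 71.0, 66.8 and 59.5 CPM with LPS, and 176, 187 and 189 CPM with IFN-β. Every LPS-activated library lay below, and every IFN-β-treated library above, all 3 unstimulated libraries. The log2 fold change was -0.76 with LPS (edgeR quasi-likelihood test, standard error 0.09, Benjamini-Hochberg adjusted p = 2.8e-05) and 0.72 with IFN-β (standard error 0.09, edgeR adjusted p = 1.3e-04). The direct difference between the 2 stimuli was 1.49 on the log2 scale (standard error 0.09, edgeR adjusted p = 5.9e-07), a 2.80-fold higher level with IFN-β. Of the exon bases of *Pycard*, 12.8% lie opposite those of *Gm45205* on the other strand, and the strand setting of the counting is not given. *Gm45205* had 23 to 76 counts per library, 0.492% to 3.87% of the *Pycard* count. The promoter is shown because *Pycard* was the one member with opposite changes. Its 250 upstream bases (RefSeq, GRCm38.p6, chr7:127993868-127994117, minus strand) held none of the same 3 motifs.
Pycard: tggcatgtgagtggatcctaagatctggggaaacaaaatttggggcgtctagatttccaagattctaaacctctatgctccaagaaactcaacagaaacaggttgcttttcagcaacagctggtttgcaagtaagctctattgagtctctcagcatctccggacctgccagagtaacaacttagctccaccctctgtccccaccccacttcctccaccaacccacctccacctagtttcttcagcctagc

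*Casp1* and *Casp4* are neighbours on the plus strand of chromosome 9, 1562 bases apart. *Casp1* (ENSMUSG00000025888; chr9:5298517-5307265) encodes caspase-1, the protease of the complex. It measured 54.5, 49.7 and 40.4 CPM unstimulated, 331, 267 and 256 CPM with LPS, and 179.97, 154 and 156 CPM with IFN-β. Library A was the highest of each group, and both stimulated groups were far above the unstimulated one. *Casp1* rose by 2.56 on the log2 scale with LPS (edgeR quasi-likelihood test, standard error 0.13, Benjamini-Hochberg adjusted p = 5.1e-08) and by 1.76 with IFN-β (standard error 0.13, edgeR adjusted p = 4.0e-06).

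*Casp4* (ENSMUSG00000033538; chr9:5308828-5336783) encodes the LPS-binding protease. In unstimulated DCs it was at 16.3, 14.4 and 12.9 CPM, with LPS at 280.15, 219 and 236 CPM, and with IFN-β at 101, 85.2 and 97.2 CPM. The groups were far apart, with LPS-activated DCs highest and unstimulated DCs lowest. *Casp4* had the largest change of the members under either stimulus. Its log2 fold change was 4.08 with LPS (edgeR quasi-likelihood test, standard error 0.13, Benjamini-Hochberg adjusted p = 2.7e-09) and 2.7 with IFN-β (standard error 0.12, edgeR adjusted p = 3.5e-07). As large a rise was seen in 1.79% of tested genes with LPS and 1.48% with IFN-β. The summed level of 10 interferon response genes differed among the unstimulated libraries, at 816, 589 and 288 CPM in A, B and C. *Casp4*, *Casp1*, *Gsdmd* and *Nlrc4* fell in the same order. With LPS the sums were 34837, 26749 and 28305 CPM in A, B and C, and with IFN-β 12782, 10210 and 11671 CPM. Their order was matched by *Casp4* in both stimulated groups, by *Casp1* with IFN-β only, and by *Gsdmd* and *Nlrc4* in neither. The part of this response in the member values was not tested.

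The 2 promoters are shown because these neighbours moved together. The 250 bases upstream of the *Casp1* start (RefSeq, GRCm38.p6, chr9:5298267-5298516, plus strand) held none of the 3 motifs. The window of the first *Casp4* start (chr9:5308599-5308848, plus strand) held the κB consensus at 2 places, printed in capitals: a run of 11 bases that ends 83 bases before the start and contains 2 overlapping matches, and a match on the other strand that ends 30 bases before it. Among 32851 RefSeq promoters of the same length, 7.25% held the κB consensus, 7.02% the GAS motif and 2.98% the response element. RefSeq promoters were found for 8 of the 9 members, 11 windows in all. Apart from *Casp4*, a match was seen in 1 of the 2 *Nlrp3* windows (κB consensus). For that window, the bases checked after the start did not match an annotated transcript. A match describes the letters of a window and shows no binding.
Casp1: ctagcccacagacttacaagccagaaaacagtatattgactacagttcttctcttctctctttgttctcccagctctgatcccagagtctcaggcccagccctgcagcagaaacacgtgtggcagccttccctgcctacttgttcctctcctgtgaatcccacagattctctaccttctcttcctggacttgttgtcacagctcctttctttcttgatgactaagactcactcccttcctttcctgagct
Casp4: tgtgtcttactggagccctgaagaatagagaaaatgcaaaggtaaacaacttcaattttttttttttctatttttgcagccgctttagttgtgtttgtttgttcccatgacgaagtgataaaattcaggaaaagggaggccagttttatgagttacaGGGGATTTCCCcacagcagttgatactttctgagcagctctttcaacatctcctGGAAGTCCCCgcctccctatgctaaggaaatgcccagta

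*Gsdmd* (ENSMUSG00000022575; chr15:75862327-75867408, plus strand) encodes gasdermin D, the pore-forming effector that both proteases cut. It stood at 94.97, 86.4 and 75.2 CPM unstimulated, at 221, 219 and 178 CPM with LPS, and at 166, 163 and 163 CPM with IFN-β. Both stimuli raised all libraries above the unstimulated ones, and the IFN-β-treated libraries agreed more closely with each other than any other group. *Gsdmd* rose by 1.27 on the log2 scale with LPS (edgeR quasi-likelihood test, standard error 0.10, Benjamini-Hochberg adjusted p = 1.2e-06) and by 0.94 with IFN-β (standard error 0.10, edgeR adjusted p = 4.2e-05). The difference between the stimuli was small, at -0.33 (standard error 0.10, edgeR adjusted p = 0.0204), and with library size alone it was -0.05 (edgeR adjusted p = 0.661). It also missed the threshold without LPS-activated library A or B or IFN-β-treated library B or C, at values from -0.32 to -0.28 (edgeR adjusted p = 0.0548 to 0.0679).

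**Figure D2:**
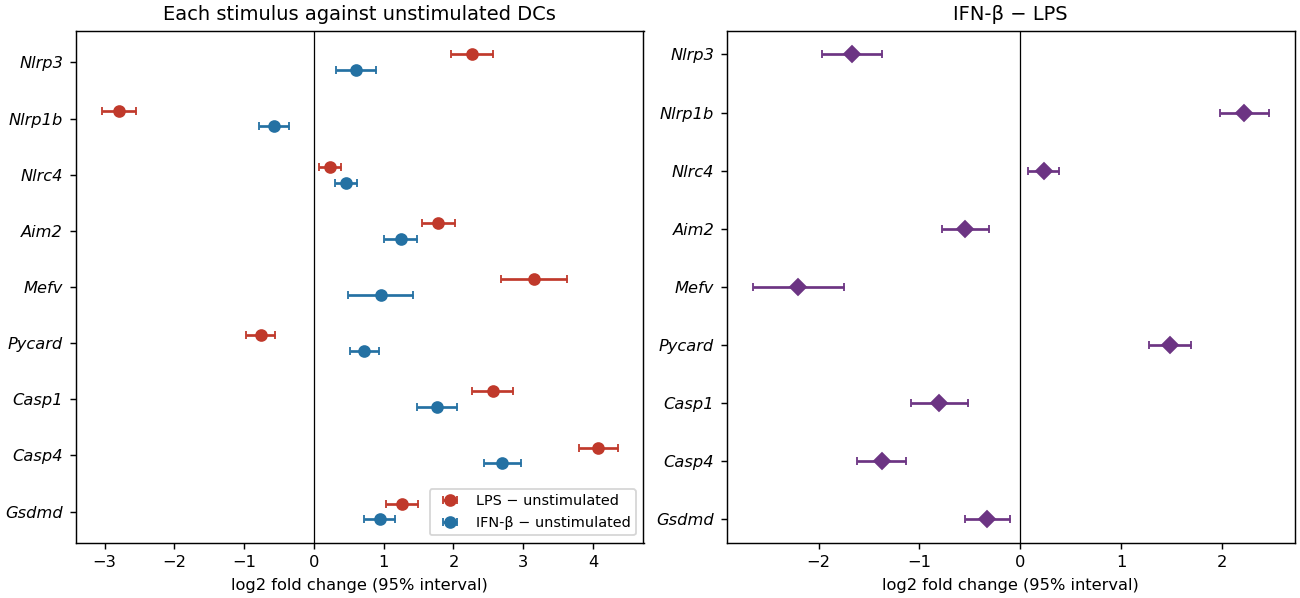
Log2 fold changes with 95% intervals of the 9 genes, for LPS (red) and IFN-β (blue) against unstimulated DCs on the left and for IFN-β against LPS on the right. *Casp4* reaches 4.08 and 2.7, *Nlrp1b* lies below 0 with both stimuli, and *Pycard* lies at -0.76 with LPS and at 0.72 with IFN-β.

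Levels were compared between genes per length, as CPM per kb of the annotated principal transcript. Overlap in these orders refers to gene ranges over the libraries of a group, not to a comparison within each library. In unstimulated DCs *Gsdmd* led with 47.7 ± 5.53 CPM per kb (SD, n = 3). It was followed by *Casp1* (32.2 ± 4.804), *Pycard* (29.4 ± 3.26) and *Nlrp3* (26.2 ± 4.37), where each overlapped the next. *Aim2* was lower, at 14.7 ± 0.624 CPM per kb, then *Casp4* (10.1 ± 1.17) and *Nlrp1b* (8.90 ± 0.337), which overlapped, *Nlrc4* (6.20 ± 0.0953) and *Mefv* (2.56 ± 0.411). *Mefv* was also lowest with the merged exons of all transcripts as length, while *Gsdmd* (36.0 ± 4.17) then overlapped *Casp1*. The annotated *Pycard* transcript has 3800 bases, and if the expressed mRNA is shorter, the level of *Pycard* per length is understated in all 3 conditions, and so are its place in these orders and its share of their sum.

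In LPS-activated DCs the order was led by both proteases, *Casp1* at 190.3 ± 27.1 and *Casp4* at 171 ± 21.96 CPM per kb. Their ranges overlapped, with *Casp1* the higher in each library. *Nlrp3* (126 ± 4.27) and *Gsdmd* (115 ± 13.5) came next and overlapped, ahead of *Aim2* (50.6 ± 8.06). *Pycard* had dropped to 17.3 ± 1.53 CPM per kb, and its range overlapped that of *Mefv* (22.9 ± 6.68). In libraries A, B and C, *Mefv* stood at 30.5, 20.1 and 18.0 CPM per kb and *Pycard* at 18.7, 17.6 and 15.7. *Nlrc4* (7.26 ± 0.480) and *Nlrp1b* (1.28 ± 0.164) closed the order. *Pycard* made up 16.5% ± 1.06 of the members' summed level per length in unstimulated DCs and 2.47% ± 0.148 with LPS (SD, n = 3).

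In IFN-β-treated DCs *Casp1* led with 109 ± 9.56 CPM per kb, above *Gsdmd* (91.6 ± 1.12) and *Casp4* (65.8 ± 5.69). *Pycard* (48.4 ± 1.85), *Nlrp3* (39.8 ± 6.35) and *Aim2* (34.7 ± 2.53) followed, each overlapping the next. *Nlrc4* (8.53 ± 0.507), *Nlrp1b* (5.98 ± 0.617) and *Mefv* (4.96 ± 0.825) were lowest, and the last pair overlapped. The share of *Pycard* was 11.9% ± 0.822. These orders rest on the length taken for each gene, and with merged exons *Casp4* moved to rank 8 in unstimulated, rank 4 in LPS-activated and rank 6 in IFN-β-treated DCs.

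**Figure D3:**
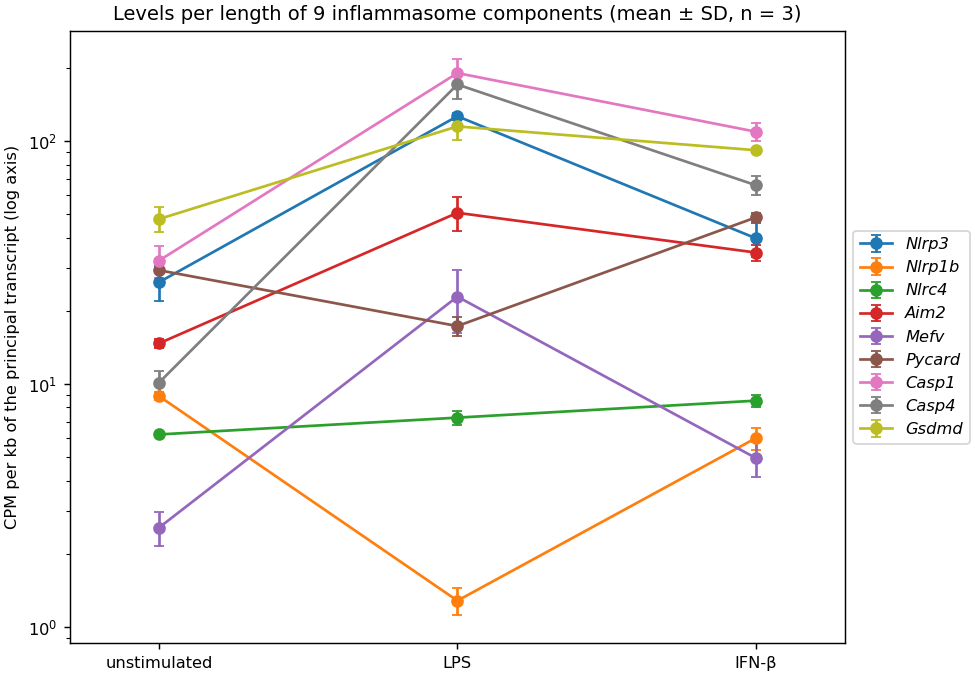
Mean level per length of each gene (CPM per kb of principal transcript, log axis; bars are SD, n = 3) in the 3 conditions, with lines joining the means of 1 gene. *Casp4* climbs from 10.1 to 171 CPM per kb with LPS, while *Pycard* goes from 29.4 to 17.3 and *Nlrp1b* from 8.90 to 1.28.

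A ratio within 1 library depends on the scaling between libraries only through the 0.5 added to each CPM. Each member was therefore set against *Pycard*, the adaptor that most of the sensors use. The ratio of *Casp1* to *Pycard* on the log2 scale (CPM + 0.5) was -1.21 ± 0.0832 unstimulated, 2.10 ± 0.111 with LPS and -0.17 ± 0.177 with IFN-β (SD over 3 libraries). It was thus 9.91-fold higher with LPS and 2.05-fold higher with IFN-β. The ratio of *Nlrp3* to *Pycard* was -0.09 ± 0.395, 2.94 ± 0.152 and -0.21 ± 0.188 in the same order. With LPS it was 8.18-fold higher, while with IFN-β the libraries overlapped the unstimulated ones (difference -0.13, exact permutation test, two-sided, p = 0.7) and without unstimulated library C the difference was 0.10. The ratio of *Mefv* to *Pycard* also overlapped between IFN-β-treated and unstimulated DCs (difference 0.18, exact permutation test, two-sided, p = 0.4). *Nlrc4* and *Nlrp1b* had lower ratios with IFN-β than unstimulated, by differences of -0.27 and -1.29, and the other 4 genes had higher ones. With LPS 7 of the 8 ratios were higher and that of *Nlrp1b* was lower, at a difference of -1.94, without overlap. *Pycard* itself had log2 fold changes of -0.76 with LPS and 0.72 with IFN-β, and these enter every ratio. A changed ratio is thus not by itself a change of the other gene. The exact permutation p was 0.1 for every ratio whose groups did not overlap.

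**Figure D4:**
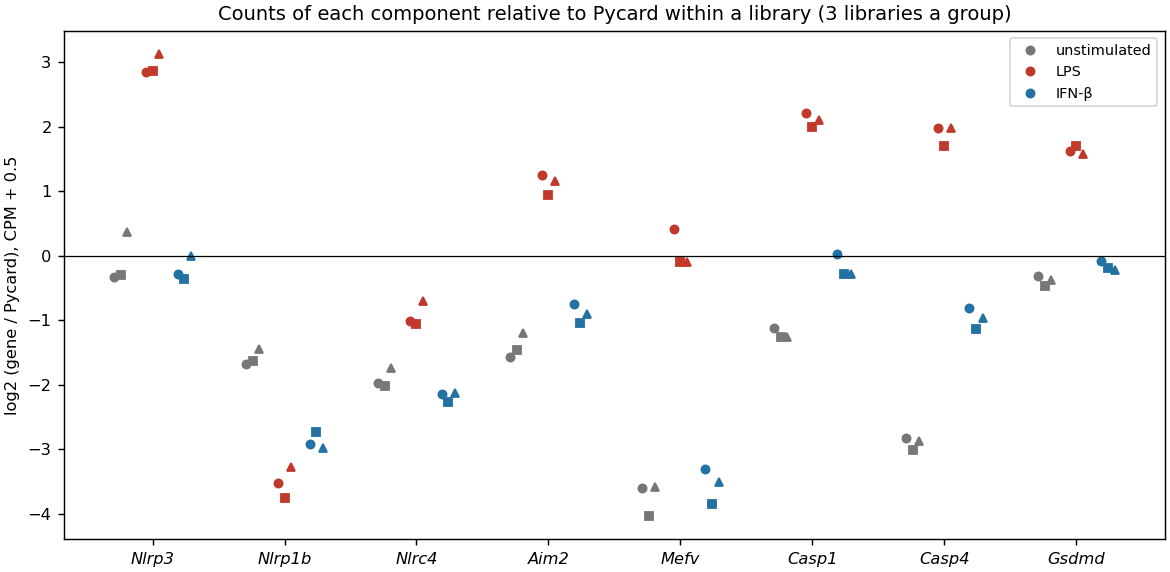
Log2 ratio of each gene to *Pycard* within each library (CPM + 0.5; circle A, square B, triangle C) in unstimulated (grey), LPS-activated (red) and IFN-β-treated (blue) DCs. The red points of *Nlrp3* lie near 3 while its blue and grey points share a range around 0, and all ratios but that of *Nlrp1b* are highest with LPS.

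The ratio of *Casp4* to *Casp1* per base was 0.316 ± 0.0163 unstimulated, 0.900 ± 0.0559 with LPS and 0.603 ± 0.0398 with IFN-β (SD over 3 libraries). No group overlapped another, with 0.302 to 0.334 unstimulated, 0.854 to 0.962 with LPS and 0.576 to 0.649 with IFN-β. With merged exons as length the ratio was 0.122 ± 0.00631 unstimulated, 0.348 ± 0.0216 with LPS and 0.233 ± 0.0154 with IFN-β, so its size depends on the length taken, while its fold between groups does not.

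Other genes of the pathway were counted from lists of known members. The counts below stand against 68.2% of all tested genes called with LPS, 46.9% with IFN-β and 49.1% between the stimuli, with median log2 fold changes of -0.04, -0.02 and 0.02, and no list was tested against them. Of 13 other sensors and sensor subunits, 10 were tested, of which LPS raised 4 and lowered 5 and IFN-β raised 5 and lowered 4 (median log2 fold change -0.39 and 0.30). *Nlrc5*, the transactivator of MHC class I genes, rose by 2.74 with LPS and 2.07 with IFN-β. *Nlrc3*, a sensor that restrains inflammatory signalling, had a log2 fold change of -2.02 with LPS and 0.02 with IFN-β, where the edgeR adjusted p was 0.969. The NAIP genes, whose proteins pass bacterial ligands to NLRC4, are close copies that may share reads. *Naip2*, *Naip5* and *Naip6* rose with both stimuli, by 0.24 to 0.92 with LPS and 0.59 to 0.86 with IFN-β, and *Naip1* had a log2 fold change of -0.57 with LPS and 1.47 with IFN-β.

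Of 8 other caspases, 7 were tested, with 4 higher and 2 lower with LPS and 6 higher and 1 lower with IFN-β (median log2 fold change 1.45 and 1.03). *Casp12*, the next gene past *Casp4* at 8646 bases, stayed below 1.4 CPM in every library, and its log2 fold changes of 3.21 and 2.15 rest on at most 37 counts per library. Without unstimulated library B or C or IFN-β-treated library A the second of these missed the threshold, at 2.22, 1.67 and 1.30.

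Of 14 substrates and effectors, 6 were tested. LPS raised 5 and lowered none, and IFN-β raised 4 and lowered 1. *Il1b*, the precursor of IL-1β, was at 33.1, 47.0 and 63.9 CPM unstimulated, at 6158, 7118 and 6988 CPM with LPS and at 37.0, 64.4 and 95.1 CPM with IFN-β. The LPS-activated libraries stood far above all others, and the IFN-β-treated libraries overlapped the unstimulated ones. Its log2 fold change was 7.14 with LPS (edgeR quasi-likelihood test, standard error 0.39, Benjamini-Hochberg adjusted p = 7.4e-08) and 0.45 with IFN-β (standard error 0.31, edgeR adjusted p = 0.258). Fitted with the letters as a replicate block, the latter was 0.41 (edgeR adjusted p = 0.0336). *Il18* went from 3.37, 2.07 and 1.94 CPM to 45.5, 35.9 and 33.2 CPM with LPS and 11.2, 7.36 and 9.31 CPM with IFN-β. Unlike *Il1b* it rose with both, by 3.96 and 1.93 on the log2 scale. *Il1a*, the precursor of IL-1α, rose by 6.29 and 1.22.

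All 27 activators and licensing factors were tested, with 16 higher and 8 lower with LPS and 18 higher and 2 lower with IFN-β (median log2 fold change 0.91 and 0.40). The guanylate-binding proteins, which coat bacteria in the cytosol, rose most: *Gbp5* by 5.77 and 3.84, *Gbp3* by 4.94 and 3.49, and *Gbp2* by 4.53 and 3.59 with LPS and IFN-β. These are related genes that may share some reads. Of 22 inhibitors 18 were tested, with 12 higher and 3 lower with LPS and 11 higher and 1 lower with IFN-β. Among them *Usp18*, a brake on interferon signalling, rose by 4.71 and 3.69. *Gfi1*, a transcriptional repressor, rose by 4.18 with LPS and by 1.001 with IFN-β, where unstimulated and IFN-β-treated libraries together lay at 0.127 to 0.580 CPM. The call with IFN-β was lost with library size alone, in the 2-group fit, in the B and C libraries, and without unstimulated library A or C or IFN-β-treated library A or C, at log2 fold changes from 0.69 to 1.11. The list of inhibitors also holds *Casp12*, given above.

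All 14 transcription factors known to act on inflammasome genes were tested, with 12 higher and 1 lower with either stimulus (median log2 fold change 1.56 with LPS and 0.72 with IFN-β). *Irf7* and *Stat2*, which carry the response to interferon, rose by 3.34 and 2.48 with LPS and by 3.12 and 2.15 with IFN-β. Neither passed the threshold between the stimuli in the main fit, at differences of -0.22 and -0.33. *Stat2* passed it under the replicate block (-0.32, edgeR adjusted p = 0.0459) and in the 2-group fit (-0.31, edgeR adjusted p = 0.0120). It also passed without unstimulated library C (-0.33, edgeR adjusted p = 0.0203). Between the stimuli, IFN-β-treated DCs had 0 substrates higher and 4 lower than LPS-activated DCs, 8 activators higher and 13 lower, 2 inhibitors higher and 8 lower, and 1 transcription factor higher and 5 lower. For other sensors the counts were 6 higher and 2 lower, and for other caspases 3 higher and 2 lower.

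**Figure D5:**
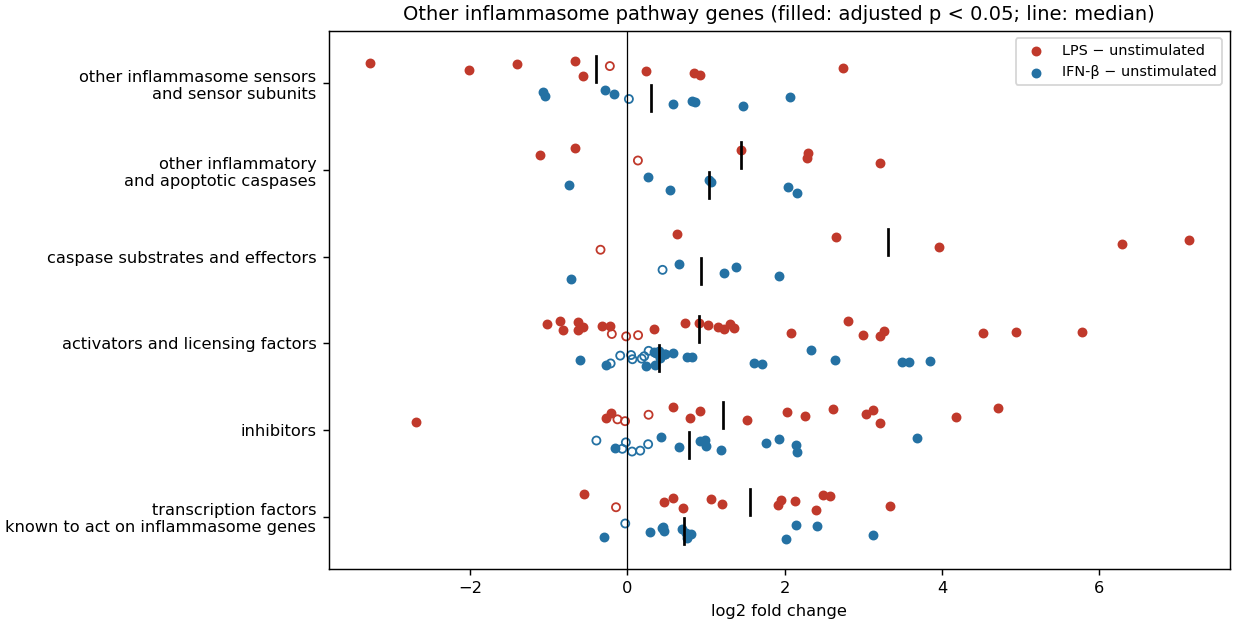
Log2 fold changes with LPS (red) and IFN-β (blue) against unstimulated DCs of the tested genes of 6 lists, with filled points for an adjusted p under 0.05 (edgeR quasi-likelihood test) and a black line for each list's median. The red medians lie above the blue ones in every list but the other sensors (-0.39 against 0.30), and *Il1b* and *Il1a* are the red points beyond 6.

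The genes whose levels ran most like each member were sought by Pearson's r of log2(CPM + 0.5) over the 9 libraries among 12810 genes. The 9 points fall into the 3 conditions, so r mostly reflects the order and spacing of the 3 group means, and it is given as a description. *Casp4* was most like *Cd274*, which encodes PD-L1 (r = 0.99988), and *Gbp5* (r = 0.99961). *Casp1* was most like the RNA sensor gene *Ifih1* (r = 0.999) and *Max*, *Nlrp3* like *Tcp10b* (r = 0.997) and *Sod2*, and *Gsdmd* like *Batf2* (r = 0.997) and *Fabp3*. *Mefv* was most like *Dgat2* (r = 0.998) and *Stat3*, and *Aim2* like *Gca* (r = 0.998) and *Sco1*. *Pycard* was most like *Neu1*, a lysosomal sialidase (r = 0.995), and *Ace*, and *Nlrp1b* like *Frrs1* (r = 0.998) and *3110082I17Rik*. *Nlrc4*, with the smallest changes, had the weakest best match, *Tbc1d8* (r = 0.974), followed by *DPCD* (r = 0.972).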

How the data were processed

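RNA was sequenced from 9 libraries, and the authors deposited raw counts per gene, without normalization. Per the labels, reads were trimmed with Trim Galore 0.6.0 and mapped to GRCm38 with STAR 2.7.8a, after depletion of ribosomal RNA; the strand setting of the counting is not given in the sources used here. All 9 libraries were fitted in 1 model with edgeR 4.0.16 in R 4.3.3, with TMM factors, filterByExpr, 1 term per condition, quasi-likelihood F-tests and Benjamini-Hochberg adjustment over 16260 genes (threshold 0.05). A standard error is the size of the log2 fold change divided by the square root of F. The fit was also run on simulated counts in which far fewer genes changed than were called here, so that run does not test the scaling of these data. Levels per length used the principal transcripts of GENCODE M21 (GRCm38); the study's methods name another release for the counts.

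The members and lists were chosen with earlier results of these data known. Named genes are the members, *Il1b* and *Il18*, the 3 called genes with the largest change of each list, and the 2 genes most like each member; the NAIP genes, *Nlrp1a*, *Csf3r* and the other neutrophil markers, *Gm45205* the NK and mast cell markers and the neighbours of *Aim2* were named after their values were seen. Some results on listed genes are not reported here. *Il1f9*, *Pydc3* and *Pydc4* had no row. After the group means were removed, the 9 same-letter pairs of libraries correlated across genes at 0.134 to 0.546 and the 18 other pairs at -0.480 to 0.0622, so the letters pair the samples by the rule used (every pair over 0.1). The alternatives were DESeq2 1.42.0, library size alone, upper-quartile factors, other filters, the compared groups alone, the replicate block, stricter thresholds and each library left out. The B and C libraries alone, and merged exon lengths, also for the *Casp4* to *Casp1* ratio, were added after seeing the data.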

Additional observations from a re-analysis of the deposited data

How the results depend on the processing

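All 9 members were called in each comparison of the report, and 7 to 9 were under every other scaling, filter, block or left-out library and at an adjusted p under 0.01. Requiring a log2 fold change of at least 1 in size left 7, 3 and 5 members (LPS, IFN-β, IFN-β against LPS) and 5429, 2052 and 2834 of all tested genes. Of 27 pairs of member and comparison, 26 kept their direction and 22 also their call under all 17 alternatives. The exceptions were *Nlrc4* in each comparison, *Nlrp3* with IFN-β and *Gsdmd* between the stimuli. Scaling by library size alone moved the median log2 fold change by -0.58, -0.31 and 0.27, and the share of called genes that were higher went from 48.1%, 50.3% and 52.5% to 21.9%, 22.3% and 77.9%. Under it *Nlrc4* with LPS became -0.35, *Nlrc3* with IFN-β -0.28, and *Irf7* between the stimuli 0.064. *Nlrp3* and *Nlrc4* with IFN-β then missed the threshold, at 0.29 and 0.15 (edgeR adjusted p = 0.0864 and 0.0950). Relative to the median of all genes these were 0.61 and 0.48, values that a change of scaling leaves nearly unmoved by construction. With upper-quartile factors *Nlrc3* with IFN-β was -0.056. Without the filter on low counts the edgeR adjusted p of *Nlrc4* with LPS was 0.0671. With single libraries left out, *Nlrc3* with IFN-β ranged from -0.26 to 0.36, and the *Nlrp3* to *Pycard* ratio with IFN-β from -0.25 to 0.10. *Nlrc4* between the stimuli missed the threshold without LPS-activated library B or IFN-β-treated library C (0.17 and 0.18). With the B and C libraries alone *Nlrc4* with LPS (0.23), and *Nlrc4* (0.25) and *Gsdmd* (-0.29) between the stimuli, missed it. The replicate block called 11950, 9151 and 9425 genes against 11084, 7631 and 7989, changed no member's call, and of the other genes named here changed those of *Il1b* with IFN-β, given above, and of *Casp12* and *Stat2* between the stimuli (-1.16 and -0.32, edgeR adjusted p = 0.0056 and 0.0459). With IFN-β, the call of *Gfi1* was lost with library size alone (0.69), in the 2-group fit (0.99), in the B and C libraries (0.78) and with 1 of 4 libraries left out (0.75 to 1.11). The causes were not tested. *Casp12*, *Gfi1* and *Nlrc3* had 149 counts per library or fewer, and the part of counting error in their values was not tested.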

Other observations

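Members were also set beside their tested neighbours within 1e+05 bases. Next to *Aim2*, 2444 bases away, *Ifi206* stood at 29.2 ± 19.5 CPM unstimulated, 707 ± 73.9 CPM with LPS and 436 ± 33.9 CPM with IFN-β (SD, n = 3). *Ifi206* and *Ifi214*, which lies 53676 bases away, belong to the same family of interferon-inducible DNA-binding proteins as *Aim2* and may share reads with their close copies. Their log2 fold changes were 4.598 and 5.22 with LPS and 3.90 and 4.43 with IFN-β, all past the threshold in edgeR's quasi-likelihood test. In the *Nlrp1* cluster, *Nlrp1a* had log2 fold changes of -1.41 with LPS and -0.18 with IFN-β, and *Nlrp1c-ps* of -3.27 and -1.07. These neighbours were named after their values were seen.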
